A study of Mus musculus with 6 samples.

Results

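Ddit4 and Sesn1 encode inhibitors of mTORC1, the kinase complex that drives protein synthesis and cell growth, and their transcripts were followed across 6 microarrays of newborn mouse forearm bone. Members were taken as the probe sets whose platform annotation lists exactly 1 gene symbol, that symbol being Ddit4 or Sesn1. This gave 2 probe sets, 1 for each gene, out of 8997 in all, or 2 of the 5780 genes that could be named. RNA came from the radii and ulnae of 129sv mice, from 3 wild-type samples and 3 samples of littermates carrying the del175k mutation of Tnni2, the gene of fast skeletal muscle troponin I. No treatment is given for either group. The labels give neither the zygosity of the mutants nor whether an array held bone of 1 mouse, so the spread between arrays may be partly technical. Both genes had been singled out from this same comparison, Ddit4 with all 6 arrays and Sesn1 with the array of mutant replicate 3 left out. Their differences between groups are therefore descriptions, with no test.

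mTORC1 is switched on at the lysosome by the GTPase Rheb and by the Rag GTPases, which report growth factors and amino acids. Ddit4, also called REDD1, restrains the complex through the TSC1-TSC2 complex, which turns Rheb off. It is known as a gene induced by hypoxia, glucocorticoids and other stresses. Sestrins, of which Sesn1 is one, restrain mTORC1 through the GATOR complexes that control the Rag GTPases and through the energy sensor AMPK. Sesn1 is a known target of p53 and of FoxO factors. In skeletal muscle, glucocorticoids and FoxO factors both act on such brakes of growth.

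The promoters of both genes are shown because these same inducers act on promoters and enhancers. Both genes matched RefSeq's table of promoters for GRCm38.p6, with 1 start for Ddit4 and 2 for Sesn1, all on chromosome 10. The 250 bases before each start are printed 5′ to 3′ on the gene's strand. Capitals mark matches to the motifs described below them. Ddit4 lies on the minus strand, at chr10:59951771-59952020. The windows of Sesn1 lie on the plus strand, at chr10:41810324-41810573 and chr10:41887189-41887438.
Ddit4: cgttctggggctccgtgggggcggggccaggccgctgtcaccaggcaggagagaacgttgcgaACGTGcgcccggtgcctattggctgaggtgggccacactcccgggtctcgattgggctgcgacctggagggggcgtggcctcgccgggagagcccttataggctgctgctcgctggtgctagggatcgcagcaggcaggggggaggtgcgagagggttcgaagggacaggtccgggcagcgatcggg
Sesn1, first start: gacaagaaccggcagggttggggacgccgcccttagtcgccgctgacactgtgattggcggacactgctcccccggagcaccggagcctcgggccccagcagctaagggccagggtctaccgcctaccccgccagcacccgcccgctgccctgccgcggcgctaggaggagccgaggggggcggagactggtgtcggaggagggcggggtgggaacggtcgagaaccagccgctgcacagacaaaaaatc
Sesn1, second start: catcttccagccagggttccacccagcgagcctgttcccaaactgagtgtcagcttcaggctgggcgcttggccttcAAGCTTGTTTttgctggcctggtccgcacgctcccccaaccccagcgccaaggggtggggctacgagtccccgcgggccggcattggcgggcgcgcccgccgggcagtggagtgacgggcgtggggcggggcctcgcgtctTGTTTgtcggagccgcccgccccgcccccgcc

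Each window was searched on both strands for known binding motifs of the inducers. The core of the hypoxia response element, ACGTG, occurred once in the Ddit4 window, from 187 to 183 bases before the start, and in neither Sesn1 window. It was held by 16.6% of all 32851 promoter windows of this length. The second Sesn1 window held 1 match to the p53 consensus half-site, from 173 to 164 bases before the start, a motif found in 7.13% of windows. It also held 2 matches to the short FoxO core AAACA on the opposite strand, ending 164 and 28 bases before the start. One of them overlaps the p53 match, and 46.4% of all windows hold this short motif. The longer FoxO core GTAAACA (3.17% of windows), the glucocorticoid receptor half-site AGAACA (16.1%) and the ATF4 element TGATGCAA (0.791%) had no match in these letters of the 3 windows. All 3 windows were rich in G and C, at 70.0%, 70.0% and 71.2%, against a median of 52.4% over all windows. A match describes the letters and does not show binding, and the annotation does not say from which Sesn1 start the measured transcripts came.

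The deposited values were summarised intensities on a linear scale, whose background correction and scaling are not given in the sources used here. Array medians lay between 39.6 and 48.4 units, and wild-type replicate 1 was the dimmest, with a median log2 shift of -0.30 against the others. Every probe set of the table reached 20 units on at least 3 arrays. Markers of bone and cartilage were present, with the 4 measured of 7 osteoblast markers (Col1a1, Ibsp, Sp7 and Alpl) and the 6 of 6 cartilage markers above 20 on all arrays. Skeletal muscle markers (6 of 6 measured) were bright too, summing to between 3482 and 6927 units in wild-type and between 4410 and 5902 in mutant bone. In such bulk RNA, fewer cells of a type and less RNA per cell cannot be told apart.

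Ddit4 had intensities of 20.9, 32.2 and 26.6 on wild-type arrays 1, 2 and 3, and of 167, 132 and 69.1 on mutant arrays 1, 2 and 3. Every mutant array was above every wild-type array, and the lowest mutant value was 2.15-fold the highest wild-type value. An order with all mutants above was seen in 9.18% of probe sets, and nothing is read from it here because Ddit4 was chosen on this comparison. No value of Ddit4 lay under 20, so the lower limit of the table did not fix this order. The group means were 26.6 ± 5.65 in wild-type and 123 ± 49.7 in mutant bone (SD, n = 3 each). The log2 difference, mutant minus wild-type, was 2.14 ± 0.33 (SE from limma), a 4.40-fold higher geometric mean and the 6th highest of all probe sets.

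Sesn1 had intensities of 22.8, 44.4 and 23.0 on wild-type arrays 1 to 3, and of 231, 134 and 42.8 on mutant arrays 1 to 3. Mutant arrays 1 and 2 stood far above the rest, whereas mutant array 3 lay within the wild-type range, just below wild-type array 2. The groups thus overlapped by this 1 pair. The group means were 30.1 ± 12.5 and 136 ± 94.1 (SD, n = 3 each), and the log2 difference was 1.94 ± 0.54 (SE), or 3.85-fold, the 9th highest of all probe sets. The size of this difference rested in part on mutant replicate 3. Without it the fold of Sesn1 was 6.16 and that of Ddit4 5.68, and without mutant replicate 1 they were 2.65 and 3.65.

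**Figure D1:**
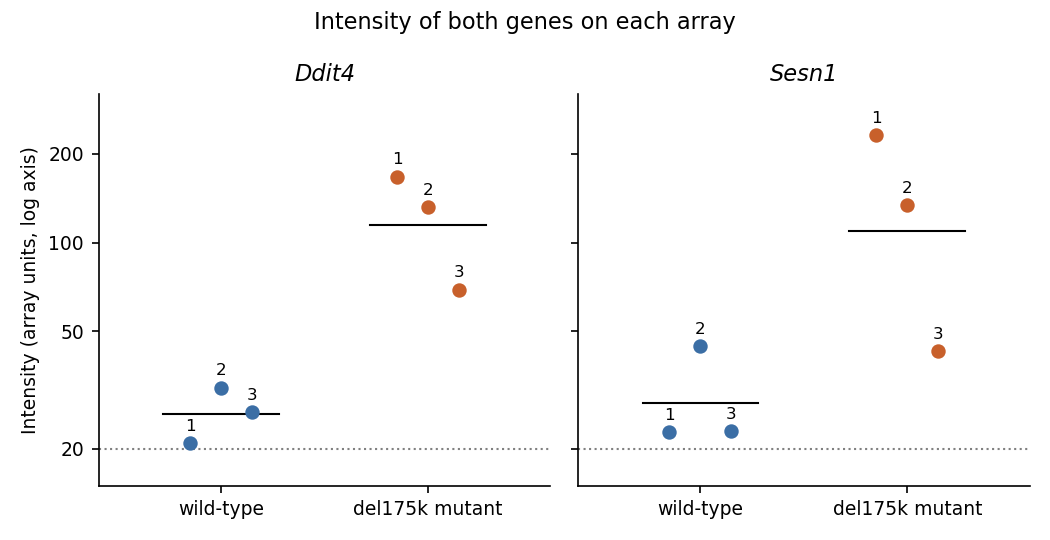
Intensity (array units, log axis) of Ddit4 and Sesn1 on the 3 wild-type and the 3 del175k mutant arrays, numbered by replicate. Bars are geometric means and the dotted line is at 20 units. All Ddit4 values of the mutants lie above those of the wild-type, while Sesn1 on mutant array 3 (42.8) lies just below wild-type array 2 (44.4).

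The mutant arrays were far from uniform for either gene. Against the geometric mean of the wild-type, Ddit4 was 6.39-fold higher on mutant array 1, 5.04-fold on mutant array 2 and 2.64-fold on mutant array 3. For Sesn1 the same arrays gave 8.10-fold, 4.69-fold and 1.5-fold. The spread among the mutant arrays, as the SD of log2 intensity, was 0.66 for Ddit4 and 1.24 for Sesn1, larger than in 96.6% and 99.5% of all probe sets. Among the wild-type arrays the SD was 0.31 for Ddit4, near the middle of all probe sets (53.3% were smaller), and 0.55 for Sesn1 (87.7% were smaller). Mutant array 3, which the choice of Sesn1 left out, was the lowest mutant array in both genes.

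The genes also varied together inside the groups. Sesn1 was chosen with mutant array 3 left out, which favours genes whose mutant array 3 stands apart, so the choice bears on these values too and nothing is supported with them. After each group's mean log2 intensity was subtracted, Ddit4 stood at -0.32, 0.30 and 0.02 on wild-type arrays 1 to 3 and at 0.54, 0.20 and -0.74 on mutant arrays 1 to 3. Sesn1 stood at -0.33, 0.64 and -0.31 on wild-type arrays 1 to 3 and at 1.07, 0.29 and -1.36 on mutant arrays 1 to 3. Wild-type array 2 was the highest of its group and mutant arrays 1, 2 and 3 ran from high to low in both genes. Pearson's r of these deviations was 0.97 over the 6 arrays, which is a description of few points that share arrays and scaling. Among the other named genes, 99.2% had a lower r with the deviations of Ddit4 than Sesn1 had. Without mutant array 3 this r was 0.88, and over the scalings, the offset and the left-out arrays it lay between 0.877 and 0.996. Mutant array order 1, 2, 3 together with wild-type array 2 highest was seen in 9.87% of all probe sets. With group differences kept in, Ddit4 and Sesn1 had an r of 0.95 and a Spearman's rho of 0.94 over the 6 arrays.

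**Figure D2:**
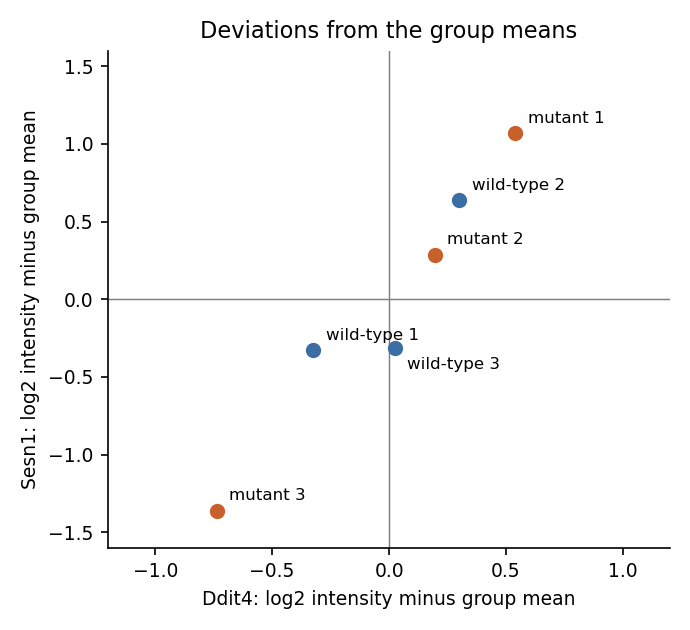
Log2 intensity minus the mean of the array's own group, for Ddit4 (horizontal) and Sesn1 (vertical), 1 point for each of the 3 wild-type (blue) and 3 mutant (orange) arrays. Mutant array 1 is at 0.54 and 1.07 and mutant array 3 at -0.74 and -1.36, so they lie at opposite ends for both genes.

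The measured relatives of both inhibitors had smaller differences with overlapping groups, although the gap to Ddit4 and Sesn1 was not tested. Ddit4l, which encodes REDD2, the close relative of Ddit4, had intensities of 24.4, 27.5 and 38.6 on wild-type arrays 1 to 3 and 24.2, 24.5 and 42.6 on mutant arrays 1 to 3. Replicate 3 was the highest in both groups, and the log2 difference was -0.01 ± 0.28 (limma adjusted p = 0.993). Sesn3, a sestrin known as a FoxO target, had intensities of 22.7, 45.4 and 31.4 in wild-type and 58.9, 37.4 and 58.0 in mutant bone. Its groups overlapped, and its log2 difference was 0.66 ± 0.29 (adjusted p = 0.671). Mutant array 3 was near the highest value for Sesn3 and the lowest mutant for Sesn1. Sesn2 was not analysed here.

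Over the whole table limma called 0 probe sets at an adjusted p of 0.05, or 0.0%, in either direction. At an unadjusted p under 0.05 it had 516 higher (5.74%) and 153 lower (1.7%), and 56.7% of all probe sets had a higher mean in the mutants. These counts were 532 and 322 after quantile normalization, and 570 and 294 with each array centred on its median. With these scalings 47.6% and 48.3% had a higher mean, so the lean was left in the counts but not in the means. With array weights 46.2% had a higher mean, and 616 were higher and 796 lower at this p. Neither lean was seen without wild-type replicate 1, the dimmest array. Then 288 probe sets were higher and 307 lower at this p, 44.7% had a higher mean and the median log2 difference was -0.03. Whether the dimness of this array gave the lean was not tested. Without wild-type replicate 2 the counts were 809 and 165. Against this background stood 136 other genes of the mTORC1 pathway and its outputs, of which 86 were measured. Of these, 0 were called, 14 had an unadjusted p under 0.05 with a higher mean and 2 with a lower mean, and the median log2 difference was 0.16, compared with 0.045 over all probe sets. The 14 include Pik3ip1, which is in the table only through its mutant values. Without wild-type replicate 1 the 86 genes had 8 and 4 at this p and a median of -0.04, near the -0.03 of all probe sets, without mutant replicate 1 they had 3 and 0 with a median of 0.09, and without mutant replicate 2 they had 7 and 0. The members of each branch are given below by role, and no named gene of them passed the adjusted threshold.

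The core of the pathway showed small differences. Mtor, the kinase itself, was at 24.4 ± 6.06 in wild-type and 33.1 ± 5.73 in mutant bone (SD, n = 3; log2 difference 0.46 ± 0.25, limma adjusted p = 0.709). Rptor, the subunit that recruits substrates, was at 0.04 ± 0.23, and Akt1s1, an inhibitory subunit, at -0.08 ± 0.18. Deptor, another inhibitory subunit, was at 17.7, 25.8 and 30.8 in wild-type and at 53.4, 33.5 and 30.4 in mutant bone. Mutant array 1 was the highest and the groups overlapped (0.65 ± 0.29, adjusted p = 0.669). With quantile normalization or median centring 2 of these 4 genes were higher rather than 3, since Rptor turned.

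Through the TSC complex Ddit4 acts on Rheb. Tsc1, which stabilises the complex, had intensities of 24.3, 23.1 and 24.03 on wild-type arrays 1 to 3 and of 46.2, 36.1 and 29.5 on mutant arrays 1 to 3. All mutants were above all wild-types, as in 9.18% of all probe sets, and the mutant arrays ran in the order of Ddit4. The log2 difference of 0.62 ± 0.22 did not pass (limma adjusted p = 0.638). Tsc2, the subunit that acts on Rheb, was at 35.6 ± 4.66 and 33.8 ± 4.22 (-0.08 ± 0.20, adjusted p = 0.941), and Rheb at 31.1 ± 3.82 and 31.8 ± 2.04 (0.03 ± 0.19, adjusted p = 0.975; SD, n = 3 each). Under quantile normalization and median centring Rheb turned to a negative sign.

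Sestrins act on the amino acid branch, where 14 of 26 genes were measured and 11 had a higher mean (10 with quantile normalization or median centring). None of the 14 was called, 2 had an unadjusted p under 0.05, and the median log2 difference was 0.24. Leaving out replicate 1 gave a median of 0.11 for the wild-type array and of 0.12 for the mutant array. Both of these serve the Rag GTPases: Flcn, the folliculin gene, at 32.8 ± 3.02 and 47.6 ± 8.09 (0.53 ± 0.21, limma adjusted p = 0.667), and its partner Fnip1 at 17.2 ± 6.15 and 25.6 ± 3.04 (0.62 ± 0.26, adjusted p = 0.667; SD, n = 3). Flcn had all mutants above all wild-types (9.18% of all probe sets), in the order of mutant arrays 1, 2 and 3. Sec13, a GATOR2 subunit that also serves vesicle transport, was lower at -0.66 ± 0.33 (adjusted p = 0.702), its arrays overlapping. The AMPK branch had 5 of 12 genes measured, 4 with a higher mean (median 0.205), and 0 with an unadjusted p under 0.05. With array weights 2 of the 5 were higher (median -0.04), and without wild-type replicate 1 it was 3 (median 0.02). The members of smallest p were Cab39, a scaffold of the LKB1 kinase (0.52 ± 0.30), Camkk2, a kinase that activates AMPK (-0.29 ± 0.21), and the AMPK subunit gene Prkab1 (0.25 ± 0.20). Camkk2 was under 20 on all 3 mutant arrays, so the limit of the table fixed its lower mean.

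The growth factor branch had a median log2 difference of 0.62 over 17 of 22 genes measured, which was 0.31 when replicate 1 of either group was left out. Higher means were seen in 12 of these and lower in 5, 0 were called, and 8 had an unadjusted p under 0.05, all higher. This list held genes that drive the branch and genes that brake it. Pik3ip1, an inhibitor of phosphoinositide 3-kinase, had 17.9, 19.7 and 14.9 on wild-type arrays 1 to 3 and 65.5, 56.8 and 30.3 on mutant arrays 1 to 3, for a log2 difference of 1.47 ± 0.29 (limma adjusted p = 0.420). Its wild-type values all lay under 20, so the limit of the table fixed its higher mean and that its groups could not overlap. Pik3ip1 is counted in the 12 and the 8 above. Pik3r1, a regulatory subunit of the same kinase, was at 17.9 ± 3.81 and 42.3 ± 9.95 (SD, n = 3; 1.23 ± 0.25, adjusted p = 0.420). Txnip, whose protein binds that of Ddit4, had 216, 271 and 301 in wild-type and 459, 367 and 471 in mutant bone. Every mutant array of Txnip was above every wild-type array (9.18% of all probe sets), but mutant array 3 was its highest, unlike Ddit4 (0.72 ± 0.21, adjusted p = 0.591). The receptor genes Igf1r and Insr, named after their values were seen, were at 1.05 ± 0.34 and 0.73 ± 0.32 (adjusted p = 0.596 and 0.669). Without mutant replicate 1 the number at an unadjusted p under 0.05 in this list fell from 8 to 3, and without mutant replicate 2 it was 4.

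Effectors of mTORC1 are controlled mostly by phosphorylation, which these arrays do not measure. Of 14 measured among 23, 11 had a higher mean (10 with quantile normalization or median centring), 1 had an unadjusted p under 0.05 and 0 were called. This was Eif4b, a translation factor gene, at 106 ± 30.5 and 167 ± 22.9 (SD, n = 3; 0.69 ± 0.24, limma adjusted p = 0.638), with all mutants above all wild-types. Ulk1, the kinase gene that starts autophagy, was at 33.8, 29.0 and 29.8 in wild-type and 63.7, 45.7 and 32.1 in mutant bone (0.56 ± 0.26, adjusted p = 0.686). Its mutant arrays ran in the order of Ddit4, and mutant array 3 lay among the wild-type values. Maf1, a repressor of RNA polymerase III, had 55.8, 72.5 and 56.4 in wild-type and 119, 96.9 and 63.3 in mutant bone (0.56 ± 0.26, adjusted p = 0.686). As with Sesn1, mutant array 3 lay below wild-type array 2.

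Transcripts that mTORC1 is known to promote had no common direction. Of 14 measured sterol and lipid synthesis genes 6 had a higher and 8 a lower mean, with a median of -0.09 and 0 called. The split depended on the wild-type arrays, with 1 higher and 13 lower without replicate 1 (median -0.28) and 8 higher and 6 lower without replicate 2 (median 0.09), while without wild-type replicate 3 or mutant replicate 2 the median was 0.02 or 0.06. Sqle, squalene epoxidase, was the 1 member with an unadjusted p under 0.05, at 28.5 ± 5.22 and 18.1 ± 4.24 (SD, n = 3; -0.66 ± 0.24, limma adjusted p = 0.645). Srebf2, the regulator of this pathway, was at -0.43 ± 0.22 and Fdps, an enzyme of isoprenoid synthesis, at -0.36 ± 0.23. Of 13 measured ATF4 and amino acid supply genes 5 were higher and 8 lower, with a median of -0.12 (0.02 without wild-type replicate 2, -0.21 without wild-type replicate 1) and 0 called. Aldh18a1, an enzyme of proline synthesis, was at 123 ± 32.5 and 77.8 ± 28.3 (-0.69 ± 0.30, adjusted p = 0.671). Phgdh, of serine synthesis, was at -0.42 ± 0.21 with all mutants below all wild-types (3.89% of all probe sets), and the stress gene Nupr1 at 0.36 ± 0.23. Both lists were chosen with results of these arrays known and are no independent evidence of a direction.

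**Figure D3:**
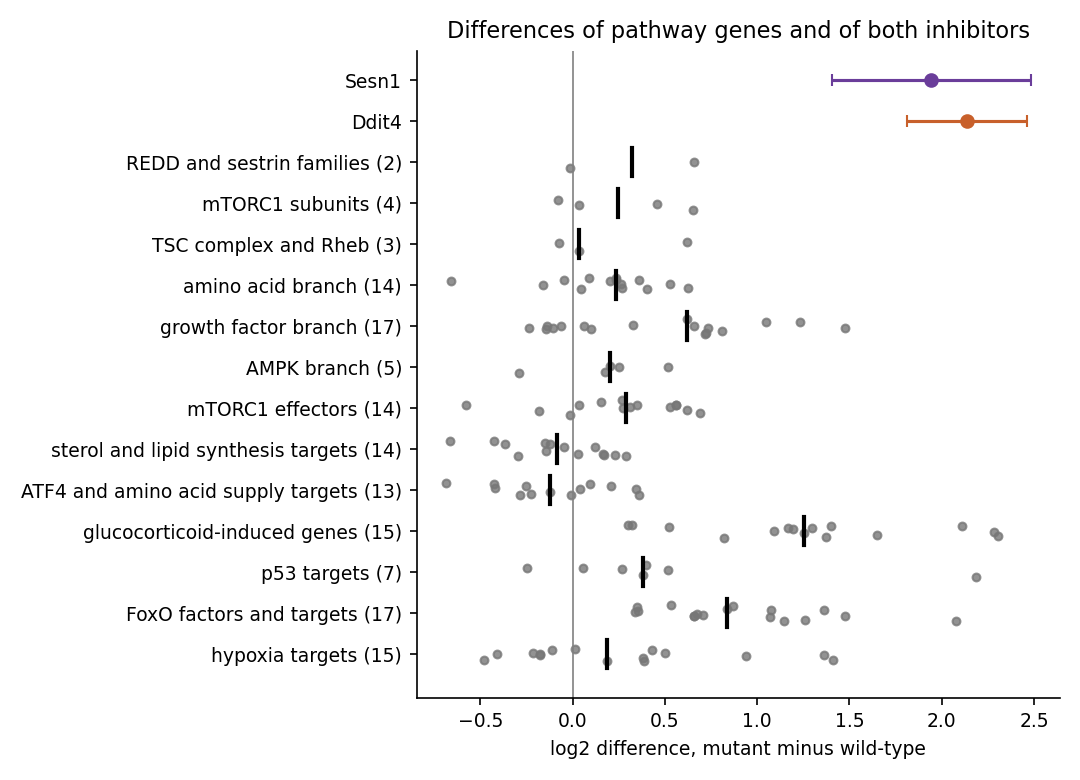
Log2 difference, mutant minus wild-type, of Ddit4 and Sesn1 (points with SE bars) and of the measured genes of 13 pathway lists (grey points, number in brackets), with list medians as black bars. Medians run from -0.12 for ATF4 and amino acid supply targets to 1.26 for glucocorticoid-induced genes. Both inhibitors lie to the right of every list median, which their choice on this comparison favours, so nothing is read from it.

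Known inducers of both genes were then set beside them through their other targets. Glucocorticoid-induced genes had the highest median difference, 1.26 over 15 measured of 19. All 15 had a higher mean, also with quantile normalization and median centring (14 without wild-type replicate 1), 10 had an unadjusted p under 0.05 and 0 were called. Tsc22d3, which encodes the glucocorticoid-induced leucine zipper protein, had 18.6, 35.1 and 24.5 on wild-type arrays 1 to 3 and 166, 155 and 49.6 on mutant arrays 1 to 3 (2.11 ± 0.44, limma adjusted p = 0.420). Mutant arrays 1 and 2 were high and mutant array 3 was nearer to the wild-type. Mt1, a metallothionein gene, showed this shape from 99.1 ± 3.11 in the wild-type to 372, 349 and 130.5 in the mutants (1.37 ± 0.36, adjusted p = 0.559), and Glul, glutamine synthetase, went to 426, 372 and 118 from 86.1 ± 19.1 (1.65 ± 0.44, adjusted p = 0.559; SD, n = 3). Without mutant replicate 3, as in the choice of Sesn1, limma called 15 of all 8997 probe sets. Of these, 5 were in this list: Fkbp5, Glul, Mt1, Mt2 and Tsc22d3. With any other array left out it called 0 of the list. The list was drawn up with results of these arrays known.

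FoxO factors and their targets had a median difference of 0.84 over 17 measured of 24, all 17 with a higher mean under each scaling. Of these 12 had an unadjusted p under 0.05, 0 were called, and 4 were under 20 on all wild-type arrays. Those 4 are in the table only through their mutant values, so their higher means were fixed beforehand. They enter the 17, the 12 and the median. Depp1, a FoxO-induced regulator of autophagy, had 9.44, 8.37 and 12.9 in wild-type and 58.4, 39.1 and 33.6 in mutant bone (2.08 ± 0.26, limma adjusted p = 0.155). Ccng2, for cyclin G2, was at 13.7 ± 2.52 and 28.8 ± 3.13 (SD, n = 3; 1.08 ± 0.21, adjusted p = 0.420). Both were among the genes under 20 on all wild-type arrays, whose order the limit of the table fixed. With array weights limma called Depp1 (4 of all 8997 probe sets called), and without mutant replicate 3 it called Depp1 and Pik3ip1 (15 called). Both genes are in the table only through their mutant values, as all their wild-type values lie under 20, so these calls support nothing about the list.

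Targets of p53 and of hypoxia were followed as well. Only 7 of 23 p53 targets were measured, 6 with a higher mean (5 with quantile normalization or median centring) and a median of 0.38. Without wild-type replicate 1 this median was 0.0051, with 4 of 7 higher, and with array weights it was 0.05. Trp53inp1, a stress protein gene that also serves autophagy, was the 1 with an unadjusted p under 0.05, at 16.7, 34.3 and 21.4 in wild-type and 176, 138 and 47.8 in mutant bone (2.18 ± 0.46, limma adjusted p = 0.420). Without mutant replicate 3 it was called, as were 15 of all 8997 probe sets. Btg2 was at 0.52 ± 0.36 and the kinase gene Plk2 at 0.38 ± 0.28. Hypoxia targets had a median of 0.19 over 15 measured of 27, with 9 higher and 6 lower (8 and 7 with quantile normalization or median centring), 4 at an unadjusted p under 0.05 and 0 called. This median was 0.02 when wild-type array 1 was left out, 0.04 for mutant array 3, 0.29 for wild-type array 2 and 0.37 for mutant array 2, and it turned to -0.06 with array weights. Egln3, a prolyl hydroxylase of the hypoxia-inducible factors, was at 16.5 ± 7.67 and 41.4 ± 13.4 (SD, n = 3; 1.41 ± 0.40, adjusted p = 0.587). The mitophagy gene Bnip3 was at 1.36 ± 0.47 and Ndrg1 at 0.94 ± 0.34. That these lists differ from one another was not tested.

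The arrays could also be compared list by list, as the median log2 intensity of a list's genes relative to their mean over the 6 arrays. Glucocorticoid-induced genes stood at -1.07, -0.13 and -0.73 on wild-type arrays 1 to 3 and at 1.22, 1.07 and -0.34 on mutant arrays 1 to 3. Sesn1 itself stood at -1.30, -0.33, -1.28, 2.05, 1.26 and -0.39 on the same arrays, so in both wild-type array 2 and mutant array 3 lay close together. Sesn1 was chosen with mutant array 3 left out, and the glucocorticoid list with results of these arrays known. Nothing is therefore read from this likeness. Ddit4 stood at -1.39, -0.77, -1.04, 1.61, 1.26 and 0.33, with mutant array 3 above every wild-type array. The FoxO list stood at -0.81, -0.19, -0.35, 0.66, 0.60 and 0.12. Hypoxia targets, at -0.60, 0.43, -0.03, 0.18, -0.15 and 0.31, were highest on wild-type array 2 and mutant array 3. The median of p53 targets was highest on mutant array 3 (0.33). All probe sets together stood between -0.25 and 0.08.

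**Figure D4:**
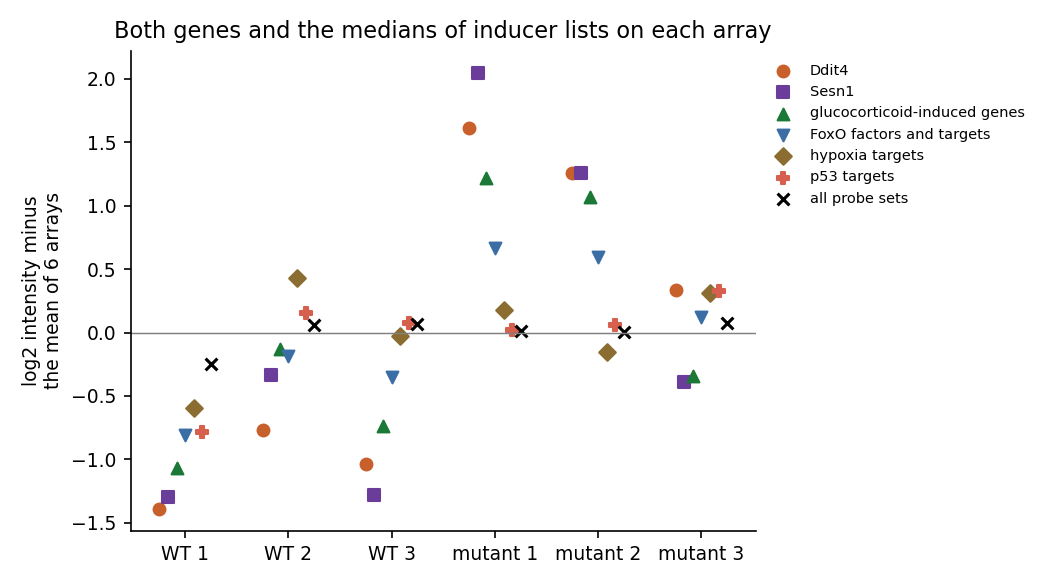
Log2 intensity relative to the mean of the 6 arrays, on each array, for Ddit4, Sesn1 and all probe sets and for the medians of 4 lists. Ddit4, Sesn1 and the glucocorticoid and FoxO lists are high on mutant arrays 1 and 2. On mutant array 3 Sesn1 (-0.39) and the glucocorticoid list (-0.34) lie close together. The choice of Sesn1 and of the list bears on this, so nothing is read from it.

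The genes most like each inhibitor were found by Pearson's r of log2 intensity over the 6 arrays, among the 5779 other named genes. These values carry the group difference, share arrays and scaling, and are descriptions. An r of at least 0.9 was reached by 230 genes for Ddit4 (3.98%) and by 241 for Sesn1 (4.17%), and the other inhibitor ranked 87 for Ddit4 and 95 for Sesn1. The lists of the 10 most like genes shared 0 names.

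Ddit4 was followed most closely by Cytl1, which encodes a secreted protein of cartilage, with an r of 0.994. Cytl1 had 74.3, 103.7 and 84.9 on wild-type arrays 1 to 3 and 206, 186 and 133 on mutant arrays 1 to 3, the same order of all 6 arrays as Ddit4. Then came Actr8 (a subunit of the INO80 chromatin remodeller, r = 0.992), Pik3r1 (0.990), Snrk (a kinase related to AMPK, 0.989), the long non-coding RNA gene Firre (0.989), Zbtb44 (0.988), Trp53inp1 (0.985), the kinase gene Nek7 (0.984), Tsc22d3 (0.983) and Ldb1 (0.983). In 9 of these 10 the rank order of the arrays was that of Ddit4, the exception being Actr8. In all 10 every mutant array was above every wild-type array, against 9.18% of all probe sets. The choice of genes by likeness to Ddit4, which has this order itself, favours both orders, so nothing is read from them. For Actr8 and Firre the limit of the table also fixed that all mutants lay above. Log2 differences ran from 0.50 for Actr8 to 2.18 for Trp53inp1. The least like genes were the transcription factor gene Klf11 (r = -0.988), Scand1 (-0.980) and the lipid amidase gene Naaa (-0.979). Naaa was under 20 on all 3 mutant arrays, so the limit of the table fixed that its mutants lay below. Klf11 had 43.0, 42.9 and 43.1 in wild-type and 30.2, 31.3 and 35.8 in mutant bone, with mutant array 3 nearest to the wild-type.

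Sesn1 was followed most closely by Ankrd16 (r = 0.994) and by Aldh6a1, a mitochondrial enzyme of valine breakdown (0.994). Aldh6a1 had 16.2, 27.7 and 17.96 on wild-type arrays 1 to 3 and 67.1, 46.1 and 26.3 on mutant arrays 1 to 3, so mutant array 3 again lay just below wild-type array 2. Then came the chromatin remodeller gene Chd7 (0.993), Maf1 (0.991), Kansl3 (0.991), Khnyn (0.991), the nuclear envelope gene Sun2 (0.991), Klf15 (0.991), Zbtb16 (0.990) and Gabarapl1 (0.990). Among them the log2 difference was highest for Zbtb16 (2.28) and Klf15 (1.40), transcription factor genes induced by glucocorticoids, and for the autophagy gene Gabarapl1 (1.26). Zbtb16 had 14.5, 39.6 and 12.5 in wild-type and 188, 127 and 34.5 in mutant bone, overlapping as Sesn1 did. Klf15 had 19.7, 35.6 and 23.6 in wild-type and 102, 87.2 and 34.3 in mutant bone. In 6 of the 10 the groups overlapped, which the choice by likeness to Sesn1 favours. Of the least like genes, Slc27a3 had an r of -0.990 and Polr2l, an RNA polymerase subunit gene, of -0.978. Fkbp1a, whose protein binds the mTORC1 inhibitor rapamycin, had an r of -0.986 and intensities of 69.1, 65.0 and 68.0 in wild-type and 54.2, 58.3 and 62.6 in mutant bone. Its log2 difference was small, -0.21 ± 0.18 (limma adjusted p = 0.777).

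**Figure D5:**
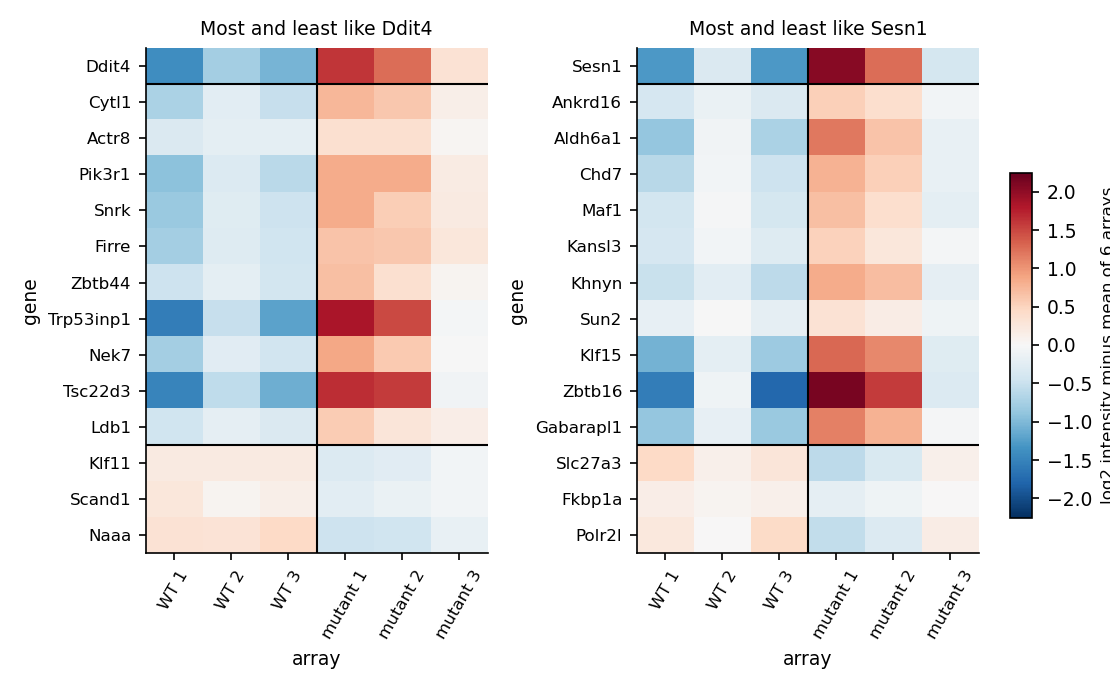
Log2 intensity relative to the gene's mean over the 6 arrays (colour), for Ddit4 and Sesn1 (top row of each panel), their 10 most like genes and their 3 least like genes (below the lower line), with wild-type arrays left and mutant arrays right of the vertical line. On mutant array 3 Ddit4 is at 0.33 and Sesn1 at -0.39.

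Markers of other cells were set beside these patterns as summed intensities. Osteoclast markers (3 of 5 measured: Ctsk, Acp5 and Mmp9) summed to between 575 and 1008 in wild-type and between 1151 and 1669 in mutant bone. Their sums were thus higher on all mutant arrays, as was Ddit4, while the groups of Sesn1 overlapped. This order was seen in 9.18% of single probe sets. For the osteoclast sums mutant array 2 was the lowest of its group. Epidermal markers (5 of 5) summed to 838, 625 and 37.5 on wild-type arrays 1 to 3 and to 54.3, 249.7 and 41.9 on mutant arrays 1 to 3. Their order was not that of either inhibitor. Myeloid markers (5 of 5) lay between 128.5 and 285 in wild-type and 180.1 and 214 in mutant bone, and erythroid markers (2 of 5) between 112 and 252 and between 135 and 468. Endothelial markers (3 of 3) lay between 73.7 and 135.5 and between 101 and 138, and the 1 measured of 3 adipocyte markers, Fabp4, between 19.1 and 25.5 and between 20.9 and 34.0. No marker was at 0. The part of these cells in the levels of Ddit4 and Sesn1 was not tested.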

How the data were processed

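The deposited values are intensities, 1 summarised brightness per probe set on single-colour Affymetrix whole-transcript arrays, per the labels' protocols and the values. Background correction, summarisation, scaling and build are not given in the sources used here. Genes were named from the platform's annotation through Entrez identifiers (6398 of 8997 probe sets have exactly 1 symbol, 576 several, 2023 none). The probe set with the highest mean stood for a gene.

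Intensities were taken to log2 with no further normalization or filter, and 2 group means were fitted to all 8997 probe sets in limma (version 3.58.1, under R 4.3.3; lmFit, then eBayes). The two-sided p-values were adjusted by Benjamini-Hochberg over all probe sets, with a threshold of 0.05, and the script was tested on simulated data. Tables and plots used Python 3.11.15, pandas 2.3.3 and matplotlib 3.10.9. The members, the gene lists and the tests were chosen with earlier results of these data known. Named genes are all measured relatives and core subunits, members of the other lists that passed or else the 3 of smallest p, and the 10 most and 3 least like genes, leaving out small non-coding RNAs, olfactory receptors and predicted genes. The alternatives were quantile normalization, median centring, an offset of 16 units, leaving out the dimmest 25%, an intensity trend, a block by replicate number, array weights and leaving out each array. The number of arrays limits the precision.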

Additional observations from a re-analysis of the deposited data

How the results depend on the processing

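Under the 13 alternatives the log2 difference of Ddit4 lay between 1.64, with 16 units added before log2, and 2.5, and that of Sesn1 between 1.41 and 2.62. With each array left out they ran from 1.87 to 2.5 and from 1.41 to 2.62, and the r of Ddit4 with Sesn1 from 0.921 to 0.983. With array weights limma called 4 probe sets against 0 (616 higher and 796 lower at an unadjusted p under 0.05), and 1 in the FoxO list. With each array left out the calls ran from 0 to 15 over all probe sets, 0 to 5 for glucocorticoid-induced genes, 0 to 2 for FoxO genes, and 0 to 1 for the growth factor and p53 lists, all calls coming without mutant replicate 3. The calls in the FoxO and growth factor lists were Depp1 and Pik3ip1, both under 20 on all wild-type arrays. Over all probe sets, counts at an unadjusted p under 0.05 were 288 higher and 307 lower when wild-type array 1 was left out, 809 and 165 for wild-type array 2, 235 and 87 for mutant array 1, 293 and 100 for mutant array 2, and 517 and 321 for mutant array 3. With each array left out the number of higher genes at an unadjusted p under 0.05 ran from 2 to 6 for hypoxia targets, 0 to 4 for effectors, 0 to 3 for the amino acid branch and 1 to 3 for p53 targets. Rptor and Rheb turned sign with quantile normalization (-0.034 and -0.041), median centring (-0.020 and -0.022) and array weights (-0.083 and -0.034). With each array left out, Rptor ran from -0.14 to 0.16, Rheb from -0.066 to 0.11, Ddit4l from -0.28 to 0.18 and Tsc2 from -0.18 to 0.0059. The causes were not tested. Same-numbered arrays deviated with an r of -0.11, -0.03 and 0.32 over all probe sets, and differently numbered arrays with an r from -0.42 to 0.34. The deviations of 3 arrays from their own mean are tied to each other. These values therefore cannot decide whether the numbers pair the samples. The replicate block left Ddit4 at 2.14 and Sesn1 at 1.94, called 0 probe sets and changed no call.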
